A study of Mus musculus with 8 samples.

Results

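The transcripts described here encode 9 actin regulators of the LIM and MICAL families, Lima1, Lmo7, Limch1, Zfp185, Ablim1, Mical1, Mical2, Mical3 and Micall1. They were chosen with the difference between eluates and inputs known, as genes enriched in the pulldown and close relatives of such genes. All 26 probesets that carry these gene names were taken out of 46643 on the array. MPC-5 cells, an immortalised mouse podocyte line, stably expressed the +KTS form of WT1 with a tandem affinity tag from a CMV promoter, were propagated at 33°C and had differentiated at 37°C for 14 days. The 4 eluates hold RNA that was retained on IgG beads and collected after TEV protease was added. The 4 inputs hold RNA of the same kind of extract incubated without beads. Each array received 650 ng of RNA, so a signal is relative to the other RNA of its own fraction. Eluates and inputs thus share the cell line, the transgene and the differentiation. Both come from extracts of whole cultures. For a difference between cultures, fewer cells with a transcript and less of it per cell therefore cannot be told apart. No pulldown from cells without the tagged protein is among the arrays analysed here, so these arrays do not tell RNA retained through WT1 from RNA retained without it. The study addressed this with further pulldowns read by qRT-PCR, immunoblots and stained gels, which are not analysed here. It reported enrichment of Myh10 from extracts of empty vector cells too, and with BSA in place of TEV protease. For Dbn1 and other candidate mRNAs it reported enrichment from empty vector extracts without showing the data. Tagged WT1 left the beads only with the protease, while the other stained protein bands were much the same without it or without tagged WT1. Its authors concluded that neither WT1 nor cleavage by the protease was needed.

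LIM domains are pairs of zinc fingers that bind other proteins, and many proteins that carry them sit on actin filaments, focal adhesions or cell junctions. MICAL proteins also hold a LIM domain, but their first domain is a flavin monooxygenase that oxidises methionines of actin and so takes filaments apart. MICAL-like proteins lack this enzyme and bind Rab GTPases on recycling membranes. Podocytes, the epithelial cells that cover the glomerular capillaries, keep their foot processes with an actin cytoskeleton of this kind.

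Over all genes, the 8 arrays had median signals of 64.9 to 84.6. Gapdh signals were 32443 to 38400 in the eluates and 29324 to 35990 in the inputs, a log2 difference of 0.11 (SE 0.17). The mouse Wt1 probeset was dim throughout, at 62.7 to 91.2 in the eluates and 51.5 to 87.0 in the inputs, as were Cd2ap and Ptpro, whereas Synpo, Podxl, Vim and Nes were well above 100. Whether the Wt1 probeset matches the WT1 cDNA of the construct was not checked, so its signal does not tell whether the transgene was expressed. The study detected the tagged protein by immunoblot. Summed over the 10 podocyte markers with a probeset, signals were 30157 to 56292 in the eluates and 20506 to 35529 in the inputs, most of it from Vim and Synpo. Nes differed most among them, by a log2 difference of 2.29 (SE 0.22, limma adjusted p = 0.000901). The arrays fell into 2 sets along a first principal component with 56.7% of the variance: eluates 1 and 4 with inputs 1 and 2, called set A here, and eluates 2 and 3 with inputs 3 and 4, called set B. These sets come from the data, and no label says what they are.

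Of the 26 probesets, 13 reached a signal of 100 on at least 3 of the 4 eluate arrays and were tested, and they cover 8 of the 9 genes. Because the eluate and input values chose the genes, the values below are a description, with no p-value. Enriched means at least 2-fold higher in the eluates and an adjusted p under 0.15. In the fit blocked by replicate number, which did not pair the samples, 5 member probesets were enriched, for Lima1, Lmo7 and Mical3. Across all 13902 tested probesets 0.655% were enriched, 1.09% were higher and 0.0288% were lower past the same cutoff. The p-values of the study's table follow another pairing. With those pairs as the block 6 member probesets were enriched, Zfp185 among them, and both Mical1 probesets passed the cutoff under 2-fold. That fit had 97 enriched probesets in all, and called 19.2% of the tested probesets higher and 20.7% lower. All 4 eluates lay above all 4 inputs for 7 of the 13 tested members, against 4.83% of all tested probesets. Among the 13 members that missed the filter no such separation was seen. The median log2 difference of the tested members was 0.90, against -0.01 over all tested probesets. Passing the filter depends on the eluate level itself, so these counts do not stand for the members that missed it.

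**Figure D1:**
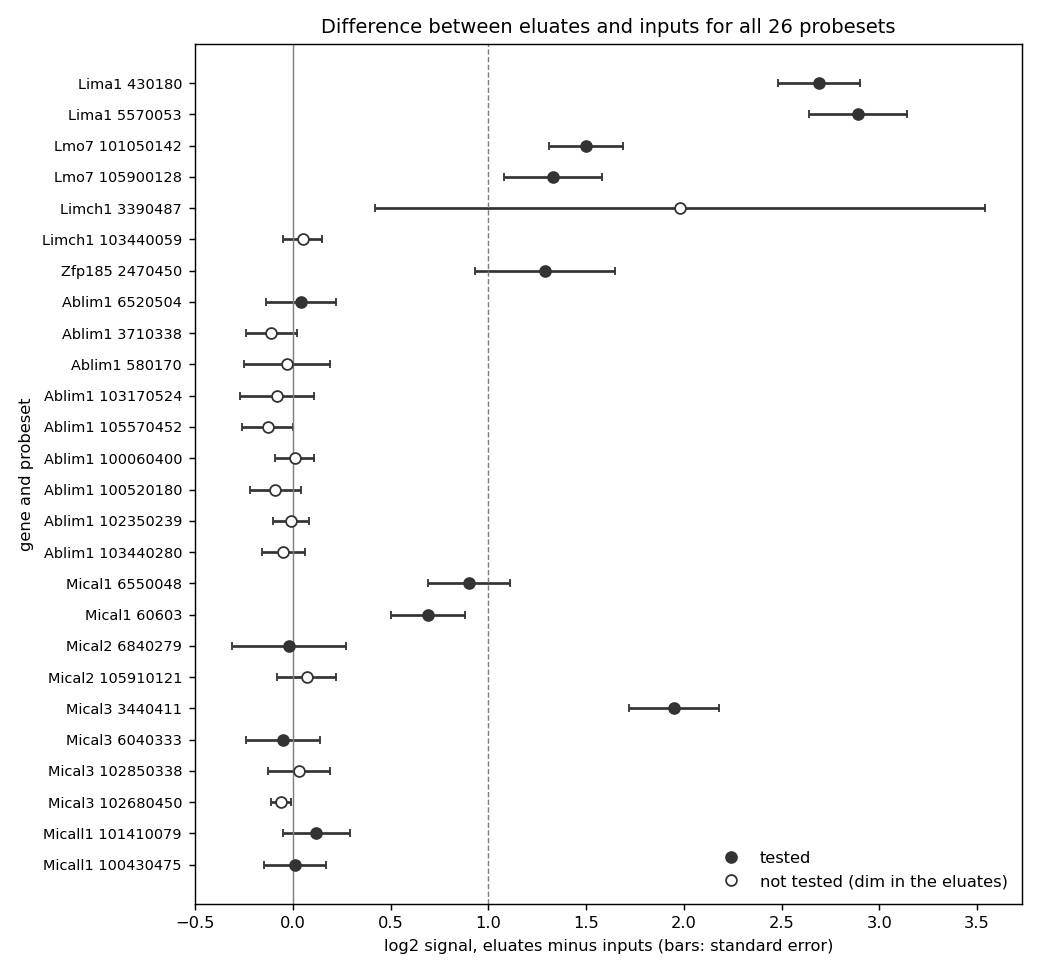
Log2 signal of eluates minus inputs for each of the 26 probesets, grouped by gene, with standard errors as bars; filled points were tested and open points missed the signal filter. Both Lima1 probesets lie at 2.69 and 2.89, while all 9 Ablim1 probesets lie between -0.13 and 0.04, and the dashed line marks a 2-fold difference.

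Lima1 encodes EPLIN, which bundles actin filaments, slows their depolymerisation and links cadherin complexes to actin. Its brighter probeset, 430180, had signals of 8659, 5746, 5831 and 8034 in eluates 1 to 4. In inputs 1 to 4 it had 1132, 1454, 937.6 and 865.2. The lowest eluate was thus several times brighter than the highest input. The log2 difference was 2.69 (SE 0.21), or 6.46-fold, the 16th highest of the 13902 tested probesets. The other probeset, 5570053, had signals of 8420.0, 4665, 4140.2 and 6675 in the eluates, against 872.4, 1152, 626.7 and 567.2 in the inputs. Its log2 difference was 2.89 (SE 0.25), or 7.42-fold, and the fractions were again far apart. Within set A the log2 differences of the probesets were 2.70 and 2.90, and within set B 2.68 and 2.88. The Lima1 difference was therefore nearly the same in both sets.

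Lmo7 joins a calponin homology domain to a LIM domain, and its protein binds afadin and alpha-actinin at adherens junctions and emerin at the nuclear envelope. Probeset 101050142 had signals of 443.2, 338.3, 179.8 and 295.5 in the eluates. The inputs had 122.5, 144.8, 84.7 and 83.0. The groups did not overlap, and eluate 3 came closest to the inputs. The log2 difference was 1.50 (SE 0.19), or 2.83-fold. Probeset 105900128 had signals of 233.6, 153.0, 133.4 and 277.2 in the eluates and 101.9, 87.6, 66.2 and 55.4 in the inputs, a log2 difference of 1.33 (SE 0.25). Inputs 3 and 4 lay a little above their array medians with the brighter probeset and below them with the other. After subtraction of the 5th percentile of each array, the log2 differences were 2.30 and 2.51. Probeset 105900128 missed the cutoff when replicate 1 or replicate 3 of both fractions was left out, with log2 differences of 1.38 and 1.44.

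Limch1 is the closest relative of Lmo7 and has the same pair of domains; its protein activates non-muscle myosin II. Probeset 3390487 had signals of 1789 and 3825 in eluates 1 and 4 but only 92.5 and 94.2 in eluates 2 and 3. In inputs 1 to 4 it had signals of 292.4, 274.2, 67.2 and 46.3. The high eluates were those of set A, and so were the high inputs. With only 2 eluates at or above 100, the probeset missed the filter and was not tested. Over all arrays the log2 difference was 1.98, but with an SE of 1.56, and the fractions overlapped. Within set A it was 3.21, or 9.24-fold, and within set B 0.74, or 1.67-fold. The excess of set A over set B, 2.46, was the highest of all 46643 probesets; it is a description, since the sets were drawn from these arrays and the comparison was chosen after the values were seen. In set B the inputs lay below their array medians, so a fold there is poorly measured. With the background subtracted, the log2 differences were 3.51 in set A and 1.40 in set B. The other Limch1 probeset, 103440059, stayed between 62.4 and 84.2 on every array.

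Zfp185 encodes a protein with a LIM domain at its end that binds actin filaments. Its single probeset, 2470450, had signals of 391.9, 154.7, 131.1 and 506.9 in eluates 1 to 4. In inputs 1 to 4 the signals were 137.7, 133.0, 84.8 and 72.0. Eluate 3 lay below inputs 1 and 2, so the fractions overlapped over all arrays, although within each set both eluates were above both inputs. The share of all probesets that separate in this way within each set was not counted. The log2 difference was 1.29 (SE 0.36), or 2.45-fold, and did not pass the cutoff in the fit blocked by replicate number. With the pairs behind the p-values of the study's table as the block, the SE was 0.11. The list of enriched genes in the study, drawn from these same arrays and so not independent, holds Zfp185 at 2.45-fold. Within set A the log2 difference was 1.72 and within set B 0.87, an excess of 0.85 that was the 16th highest of all 46643 probesets. With the background subtracted, the log2 differences were 2.04 over all arrays, 2.36 in set A and 1.72 in set B, an excess of 0.64. Zfp185 passed the cutoff and the 2-fold limit where the pairs behind the p-values of the study's table, or the array sets, took the place of the replicate number. Each of those fits had 97 enriched probesets in all. Zfp185 also did so with quantile normalization, with no filter, and without replicate 2 of both fractions, where the log2 difference was 1.65. Without replicate 4 the value was 0.79, past the cutoff but under 2-fold. Replicate 2 is an eluate of set B and an input of set A, and replicate 4 is the reverse. The fits without replicate 2 or 4 thus mix fraction with array set.

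The summed signals of several cell type marker lists also moved with the array sets, that of the podocyte list included. The podocyte sums were 51976 to 56292 in the eluates and 34894 to 35529 in the inputs of set A, and 30157 to 33441 in the eluates and 20506 to 22901 in the inputs of set B. Vim and Synpo made up most of these sums. In the inputs, set A over set B was 2.57-fold for Synpo, 1.45-fold for Vim and 1.27-fold for Nes, but 0.939-fold for Podxl. The rest of the podocyte markers were dim. The summed signal of the 8 tubule and collecting duct markers was 13568 to 14947 in the eluates and 14410 to 15682 in the inputs of set A, and in set B it was 3152 to 3507 in the eluates and 3155 to 3333 in the inputs. Aqp1, Lrp2 and Cdh16 made up most of it, while Umod, Slc12a1, Slc12a3, Aqp2 and Cubn were dim. The 5 mesangium and fibroblast markers, led by Acta2, summed to 11718 to 17876 in the eluates and 12291 to 16804 in the inputs of set A, against 3759 to 4216 in the eluates and 3399 to 3640 in the inputs of set B. The 5 endothelial markers summed to 495 to 616 in the eluates and 596 to 598 in the inputs of set A, and to 475 to 526 in the eluates and 430 to 519 in the inputs of set B. None of the 3 leukocyte markers reached 100 on 3 arrays of either fraction. Between eluates and inputs of the same set, the tubule and endothelial sums overlapped in both sets and the mesangium and fibroblast sums in set A alone. The podocyte sums did not overlap in either set, and neither did the Limch1 or the Zfp185 signals. So few arrays per set separate easily, and the share of all probesets that do so was not counted. Nes, Synpo and Vim carried the gap in the podocyte sums, with log2 differences of 2.29, 0.81 and 0.34 over all arrays. Podxl was at 0.17, and Wt1 and Lmx1b were at 0.02. Trpc6, Nphs1, Ptpro and Cd2ap went the other way, at -0.14, -0.18, -0.12 and -0.05. The part of these cell markers in the Limch1 and Zfp185 values was not tested.

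**Figure D2:**
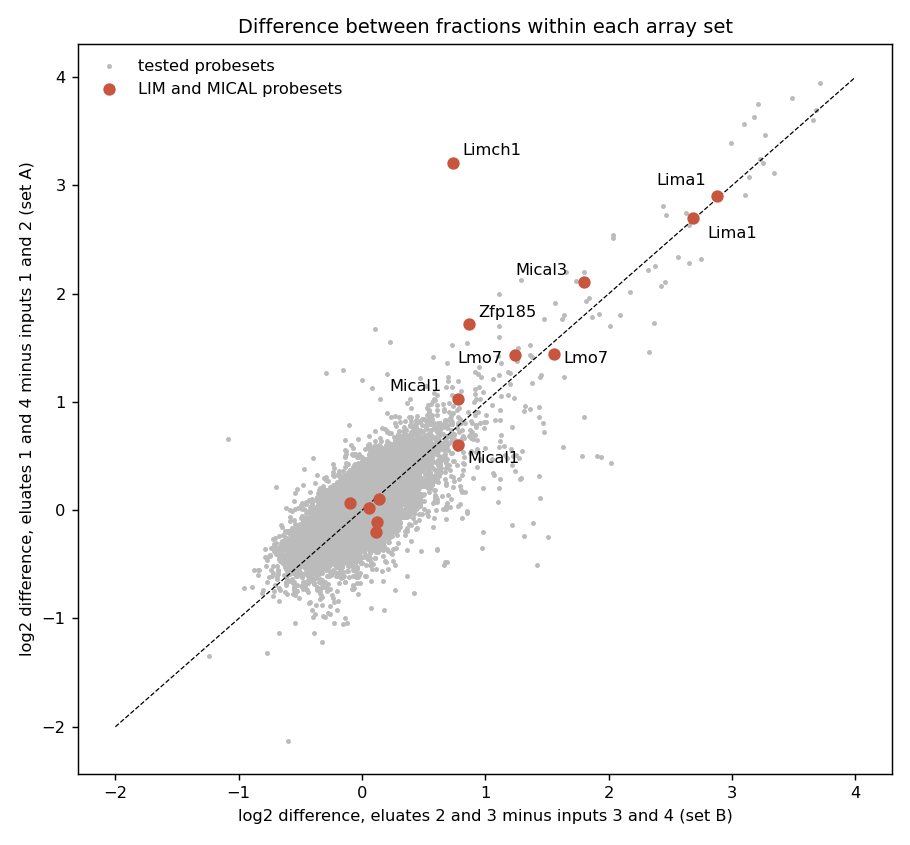
Log2 difference of eluates minus inputs within set A (vertical) against that within set B (horizontal), for the tested probesets (grey) and for the LIM and MICAL probesets (red), including the Limch1 probeset that missed the filter. Lima1, Lmo7 and Mical3 lie near the dashed line of equal differences, and Limch1 lies far above it, at 3.21 in set A and 0.74 in set B.

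Ablim1, with several LIM domains and a villin headpiece that binds actin, had log2 differences near 0 in all 9 probesets. Only probeset 6520504 was tested, with signals of 117.6, 101.4, 97.4 and 117.8 in the eluates and 115.0, 117.5, 108.8 and 83.4 in the inputs. Its log2 difference was 0.04 (SE 0.18), and the groups overlapped. The other 8 had log2 differences between -0.13 and 0.01, and no Ablim1 probeset passed 117.8 on any array. Signals this dim could hide a difference, so the level of Ablim1 in either fraction is poorly known. Its relative Ablim3 stayed at 77.1 to 112.7 in the eluates and 72.6 to 106.3 in the inputs with its brightest probeset.

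Among the MICAL enzymes, Mical3, which takes part with Rab8 in the docking of exocytic vesicles, had the largest difference. Probeset 3440411 had signals of 1424, 897.7, 738.2 and 1567 in the eluates. The inputs had 349.0, 345.2, 243.0 and 224.6. Every eluate was more than 2-fold above the highest input. The log2 difference was 1.95 (SE 0.23), or 3.87-fold, with 2.11 in set A and 1.80 in set B. The platform annotation gives this probeset the name of a cDNA clone, and it is called Mical3 here because the list of enriched genes in the study gives Mical3 its fold change.

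A second tested Mical3 probeset, 6040333, did not show this difference. It had signals of 101.4, 112.5, 106.1 and 134.8 in the eluates and 142.4, 127.4, 97.9 and 104.7 in the inputs, a log2 difference of -0.05 (SE 0.19). Signals this dim could hide a difference, as for Ablim1. The other 2 Mical3 probesets were dim, with log2 differences of 0.03 and -0.06. The Mical3 difference described here is therefore that of 1 probeset, and the mean over both tested ones was 0.95.

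Mical1, the member of the family that semaphorin and plexin signals activate, was higher in every eluate than in any input with both of its probesets, but under 2-fold. Probeset 6550048 had signals of 212.6, 161.0, 136.3 and 217.0 in the eluates and 92.5, 120.4, 95.3 and 77.9 in the inputs. Its log2 difference was 0.90 (SE 0.21). Probeset 60603 had signals of 127.4, 101.2, 103.0 and 116.3 in the eluates and 85.3, 75.3, 71.6 and 49.7 in the inputs, a log2 difference of 0.69 (SE 0.19). Neither passed the cutoff in the fit blocked by replicate number, and both did in the fit without a block. Both also did with the pairs behind the p-values of the study's table as the block. That fit called 19.2% of all tested probesets higher and 20.7% lower. Both Mical1 probesets also passed the cutoff without replicate 2 (1.06 and 0.78) and without replicate 4 (0.71 and 0.51), fits that mix fraction with array set. With the background subtracted the log2 differences were 1.64 and 1.65, both past the cutoff and the 2-fold limit.

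Mical2, known for oxidising nuclear actin and so raising the activity of the SRF cofactor MRTF, had overlapping signals in both fractions. Probeset 6840279 had signals of 137.7, 106.3, 94.1 and 239.3 in the eluates. The inputs had 210.0, 142.7, 117.4 and 98.0. The highest value was an eluate and the lowest too, and the log2 difference was -0.02 (SE 0.29). Without replicate 4 it was -0.45 and past the cutoff, as lower in the eluates, in a fit in which the median of all tested probesets was -0.13. That fit leaves out an eluate of set A and an input of set B, so it mixes fraction with array set. The second Mical2 probeset missed the filter, with a log2 difference of 0.07.

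Micall1, which organises tubular recycling endosomes, had bright signals that overlapped between the fractions. Probeset 101410079 had signals of 1742, 1812, 1426 and 1867 in the eluates and 1492, 1906, 1578 and 1345 in the inputs. The log2 difference was 0.12 (SE 0.17), and the groups overlapped. Probeset 100430475 had a log2 difference of 0.01 (SE 0.16). The relative Micall2, a partner of Rab13 at tight junctions, had a log2 difference of 0.23 (SE 0.21, limma adjusted p = 0.832) with its tested probeset. It passed the cutoff, as higher in the eluates, where the pairs behind the p-values of the study's table were the block, as did 19.2% of all tested probesets.

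**Figure D3:**
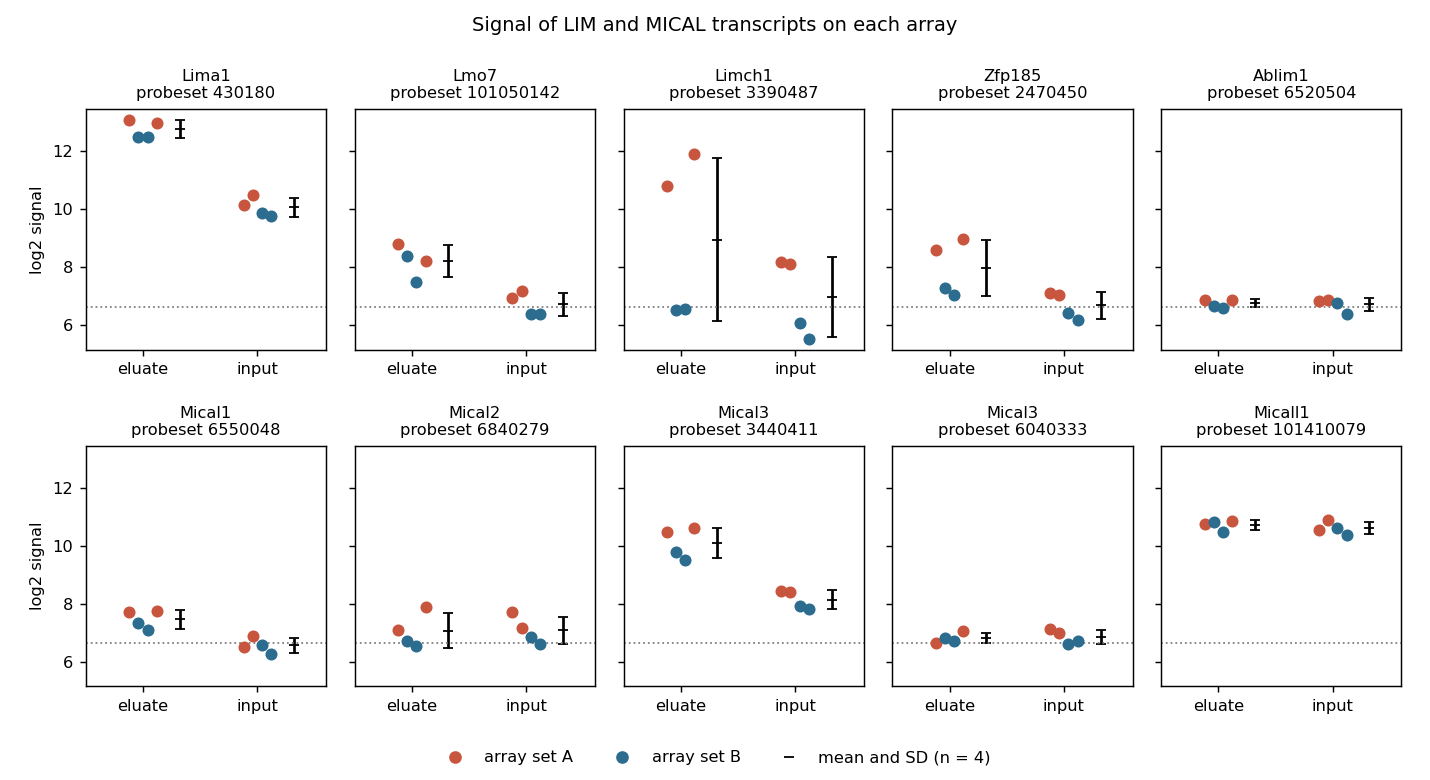
Log2 signal on each array for 10 probesets of the 9 genes, eluates left and inputs right, colored by array set, with the mean and SD of the 4 arrays beside the points; the dotted line marks a signal of 100. Lima1, Lmo7, Mical1 and the first Mical3 probeset have all eluates above all inputs, and the 2 Limch1 eluates of set A, at signals of 1789 and 3825, lie far above those of set B, at 92.5 and 94.2.

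Other LIM proteins were compared with the same fit, from lists written with earlier results of these data known. Of 38 LIM proteins of focal adhesions, filaments and Z-discs, 25 were tested, and 0 passed the cutoff in either direction by limma with the replicate block, while 2 had an unadjusted p under 0.05, as did 10.1% of all tested probesets. The replicate numbers did not pair the samples, and with the pairs behind the p-values of the study's table as the block, 5 were higher and 1 was lower, all under 2-fold. In that fit 19.2% of all tested probesets were higher and 20.7% were lower past the cutoff. Their median log2 difference was 0.06. Pdlim5, an enigma family protein of stress fibers, had signals of 1836, 826.8, 701.6 and 1429 in the eluates and 802.8, 809.3, 597.3 and 437.7 in the inputs, a log2 difference of 0.79 (SE 0.27, adjusted p = 0.362). Without replicate 2 it was 1.04, past the cutoff and the 2-fold limit, but that fit mixes fraction with array set. With the study's pairs as the block the limma adjusted p of Pdlim5 was 4.17e-10. Limk1, a kinase that inactivates cofilin, had a log2 difference of 0.43 (SE 0.18, adjusted p = 0.464). Only Limk2, named here after its values were seen, had all eluates above all inputs, at 848.7 to 985.0 in the eluates and 674.1 to 809.8 in the inputs. That is 1 of the 25 tested, beside 4.83% of all tested probesets.

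Of 18 nuclear LIM proteins and their cofactors, 5 were tested, with a median log2 difference of 0.05 and 0 past the cutoff or at an unadjusted p under 0.05 by limma. The largest differences were 0.20 for the transcription factor Isl2 (SE 0.18, adjusted p = 0.816) and 0.18 for the LIM domain binding cofactor Ldb1 (SE 0.17, adjusted p = 0.841). With the study's pairs as the block 1 of the 5 was higher past the cutoff, beside the 19.2% of all tested probesets.

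Genes that act with MICAL proteins had medians close to 0. Of 12 Rab GTPases and membrane partners 11 were tested, with a median log2 difference of 0.05 and 0 past the cutoff or at an unadjusted p under 0.05. Ehd1, which remodels the recycling tubules that Micall1 marks, had a log2 difference of 0.45 (SE 0.21, adjusted p = 0.545). Rab13, the partner of Micall2, had 0.35 (SE 0.20, adjusted p = 0.622). With the study's pairs as the block 4 of the 11 were higher and 1 was lower, in a fit that called 19.2% of all tested probesets higher and 20.7% lower. Of 8 methionine sulfoxide reductases and plexins 3 were tested, also with 0 past the cutoff or at an unadjusted p under 0.05 by limma. Msrb3 and Msrb1, whose enzymes reverse the oxidation of methionine, had log2 differences of -0.27 (SE 0.23, adjusted p = 0.806) and -0.10 (SE 0.21, adjusted p = 0.965). With the study's pairs as the block 1 of the 3 was lower, beside the 20.7% of all tested probesets.

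Of 14 junction and filament partners of Lima1, Lmo7 and Limch1, 13 were tested and 3 were higher in the eluates past the cutoff, with 0 lower, against 1.09% higher and 0.0288% lower of all tested probesets. The median log2 difference of the list was 0.19. With the study's pairs as the block 6 were higher and 1 was lower, against 19.2% and 20.7% of all tested probesets, and 3 were at least 2-fold higher. These 3 are also in the list of enriched genes in the study, so they are not independent of it. The partner list was itself written with earlier results of these data known. Its counts are thus a description and do not test whether partners are enriched. Actn4, an alpha-actinin that crosslinks filaments in podocytes, had signals of 16194, 20427, 14784 and 21839 in the eluates, against 4096, 3792, 4025 and 2774 in the inputs, a log2 difference of 2.32 (SE 0.21, adjusted p = 0.000505). Actn1 had signals of 2006, 1773, 1608 and 2729 in the eluates, against 789.0, 653.7, 432.5 and 405.2 in the inputs, a log2 difference of 1.86 (SE 0.24, adjusted p = 0.00592). Myh9, the heavy chain of non-muscle myosin IIA, had signals of 36047, 33065, 29418 and 40437 in the eluates, against 11582, 10332, 11347 and 8898 in the inputs, a log2 difference of 1.72 (SE 0.18, adjusted p = 0.00157). Afdn, which encodes afadin, was the fourth with all eluates above all inputs, at 2010 to 2424 in the eluates and 1674 to 1990 in the inputs. These are 4 of the 13 tested, beside 4.83% of all tested probesets.

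**Figure D4:**
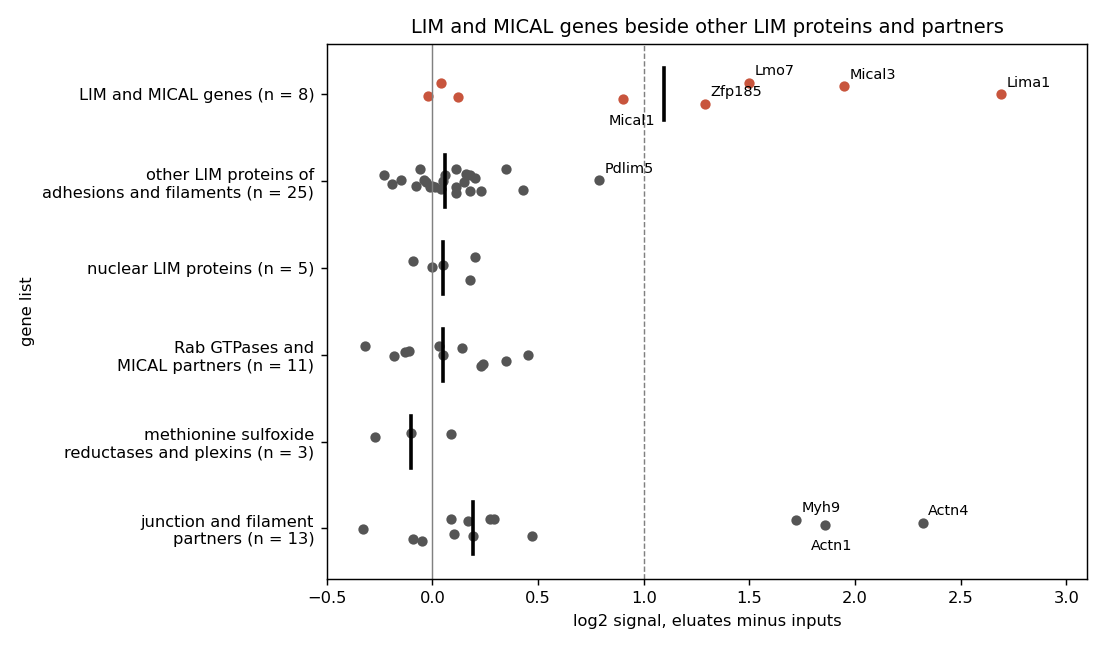
Log2 difference of eluates minus inputs for the brightest tested probeset of each gene, with LIM and MICAL genes in the top row (red) and the gene lists below (grey); vertical strokes mark the median of each row and the dashed line a 2-fold difference. In the list of other LIM proteins the largest value is 0.79 for Pdlim5, while Actn4, Actn1 and Myh9 lie at 2.32, 1.86 and 1.72 among the partners.

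Over the 8 arrays, the named genes whose log2 signal ran most like that of Lima1 probeset 430180 were Crybg1 (r = 0.997), Utrn (0.996), Fbxo46 (0.996), Myo18a (0.994) and Sptbn1 (0.994), out of 13901 tested probesets. The points share the same 8 arrays and the same split between fractions, and the correlations are given as a description. Their log2 differences were 2.60, 3.37, 1.40, 1.82 and 3.41.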

How the data were processed

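Illumina Sentrix-6 mouse arrays measured the RNA of 4 eluates and 4 inputs. BeadStudio and Partek 6.4 are named in the submitters' processing notes, and whether arrays were normalized to each other is not stated in them. The authors deposited log2 signal, which was used as deposited, and printed signals are its antilog. Another 24 value columns of other tables match no sample label and were not used. No genome build is named, so no coordinates are given.

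Probesets were named by the platform annotation or, for Lmo7 and 1 Mical3 probeset, by the study's lists; 32794 of 46643 have 1 symbol, 55 several and 13794 none, and no sequence is printed. The 13902 probesets whose signal reached 100 on 3 or more eluate arrays were fitted with limma 3.58.1 in R 4.3.3 on fraction and replicate number, with Benjamini-Hochberg adjustment. The fit was tested on simulated data in which samples of the same number shared an effect. The real replicate numbers did not pair the samples, so that test does not bear on the choice of block. Standard errors of tested probesets come from this fit, although the replicate numbers did not pair the samples. With the pairs behind the p-values of the study's table as the block, those of the tested members were 0.1 or 0.11. Standard errors of probesets outside the filter come from the spread of the 4 and 4 arrays. Depth has no meaning for arrays, whose number limits precision. The methods call the 4 pulldowns independent, each with an input processed beside it, but name no cultures, so p-values measure only the spread between these samples.

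The members, gene lists and tests were chosen with earlier results of these data known. The text names all members, their relatives, the list genes past the cutoff (at most 4) or the 2 largest differences, the 5 genes most like Lima1, and Gapdh and Wt1. The planned permutation test between probesets of 1 gene was not run. The alternatives tried were other blocks, quantile normalization, background subtraction, other filters, no moderation and leaving out each replicate. Python 3.11.15 with numpy 2.4.6, pandas 2.3.3 and matplotlib 3.10.9 did the rest.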

Additional observations from a re-analysis of the deposited data

How the results depend on the processing

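The main fit called 156 probesets, of which 91 were enriched, with 5 members past the cutoff (all 5 enriched) and 3 list genes. The replicate numbers did not pair the samples (correlations of deviations from the fraction means 0.47, -0.66, 0.74 and -0.76 for numbers 1 to 4), and without the replicate block 832 probesets passed, 7 of them members. With the pairs behind the p-values of the study's table as the block (correlations 0.76 to 0.82), 5539 probesets passed, 8 of them members, with 21 list genes; with the array sets as the block, 4124 passed, 8 of them members, with 15 list genes. Quantile normalization gave 813 probesets, 8 members and 5 list genes. No filter gave 390 probesets and 9 members, Limch1 among them, in a fit that gave every probeset the same variance, as did the fit without replicate 2. Without moderation of the variance 0 probesets, 0 members and 0 list genes passed, against 1303 at an unadjusted p under 0.05. At an adjusted p of 0.05, 84 probesets passed. Leaving out replicate 1, 2, 3 or 4 of both fractions gave 53 (without 3) to 1474 (without 4) probesets, 53 to 127 (without 2) enriched, 4 to 9 members past the cutoff, 4 to 7 of them enriched, and 3 to 7 list genes; without replicate 4 the median of all tested probesets moved to -0.13. Without replicate 2 or 4 the remaining eluates and inputs are split unevenly between the array sets, so those fits mix fraction with array set. Both probesets of Lima1, Lmo7 probeset 101050142 and Mical3 probeset 3440411 were enriched in all these fits except the one without moderation.

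Of 169 single values under an alternative, 164 stayed within 1 SD of the replicates and none of the called ones changed sign. The other 5 are the Lmo7 (2.30 and 2.51) and Mical1 (1.64 and 1.65) probesets with the background subtracted, and Mical3 as the mean of its tested probesets (0.95). In this balanced design another block, another filter or no moderation cannot change a log2 difference, so many of the 169 were bound to stay. So were the means of genes with 1 tested probeset. The SD is also wide for some, as Zfp185 counted as unmoved at 0.79 without replicate 4 and at 2.04 with the background subtracted. Input signals near the array median limit what can be said of Lmo7, Mical1, Mical2, Zfp185 and Ablim1, of Mical3 probeset 6040333 and of Micall1 probeset 100430475. The comparison of protein length with the difference was not run.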

Other observations

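The pattern of Limch1 over the 8 arrays was set against 17867 probesets that reached a signal of 100 on an eluate array, a comparison chosen after its values were seen. The named genes most like it were Lrch4 (r = 0.992), Akap12 (0.991), Rhbdf2 (0.991), Faap20 (0.990) and Ap4m1 (0.981). Between eluates and inputs their log2 differences were 0.14, 1.13, 0.24, 0.11 and 0.33, all smaller than the 1.98 of Limch1. Akap12 encodes a scaffold for protein kinases at the cell cortex. The points are the same 8 arrays, 2 of which carry most of the Limch1 signal, so the correlations are a description.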
